A study of Arabidopsis thaliana with 12 samples.

Results

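The 6 genes described here, grouped as sugar-starvation and dark-inducible, were followed in whole roots of Arabidopsis thaliana over the first days on sulfur-deficient medium. They were GAT1_2.1 (AT1G15040), AT3G15450, AT2G20670, ATL8 (AT1G76410), AT2G32150 and AT4G27450. Members were the probe sets that the platform table pairs with 1 of these genes alone, which gave 7 probe sets for 6 genes, out of 22746 probe sets on the array and 13350 genes named there by a single symbol. GAT1_2.1 had a pair of probe sets, of which the brighter stood for it. The 6 genes were grouped with their signals on these 12 arrays known, so their values are given as a description and without a test.

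The arrays were one-colour Affymetrix arrays of ecotype Columbia, 2 per group. In the control group, called 0 h, seedlings grown for 5 days on standard medium were moved to fresh standard medium. In the other groups such seedlings were moved to sulfur-deficient medium for 3, 12, 24, 48 or 72 h. Per the labels the deficient medium contained 1% sucrose, and the labels give no sucrose content for the standard medium. No later time had roots on standard medium, so sulfur deficiency, transfer, seedling age and hour of harvest cannot be told apart here. The labels do not say that the replicates came from separate cultures, so errors and p-values below cover only how far these arrays differ among themselves, and that spread can be technical.

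Plant cells repress a set of genes while sugar is plentiful and raise them when it runs short, as in prolonged darkness. The protein kinase SnRK1, which is active when energy is low, drives much of this response through transcription factors of the bZIP family. Many genes of the response serve to recover carbon and nitrogen from amino acids, cell walls and storage compounds, and roots depend on sugar delivered from the shoot. GAT1_2.1 is a glutamine amidotransferase, an enzyme class that takes the amide nitrogen of glutamine. ATL8 belongs to a family of RING-H2 proteins, which act as ubiquitin ligases. The tables used here give AT3G15450, AT2G20670, AT2G32150 and AT4G27450 a locus number only, so no role is stated for them.

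All 6 genes were highest at 0 h and lowest at 3 h, by the mean log2 signal of each time, and came back part of the way afterwards. The lowest mean fell at 3 h for 24.0% of the 14678 probe sets tested, which is the background for that count. A probe set was tested when on at least 2 arrays its signal exceeded that array's 40th percentile, and all 6 genes passed. The signal is the MAS5 intensity of the deposited table, on a linear scale.

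**Figure D1:**
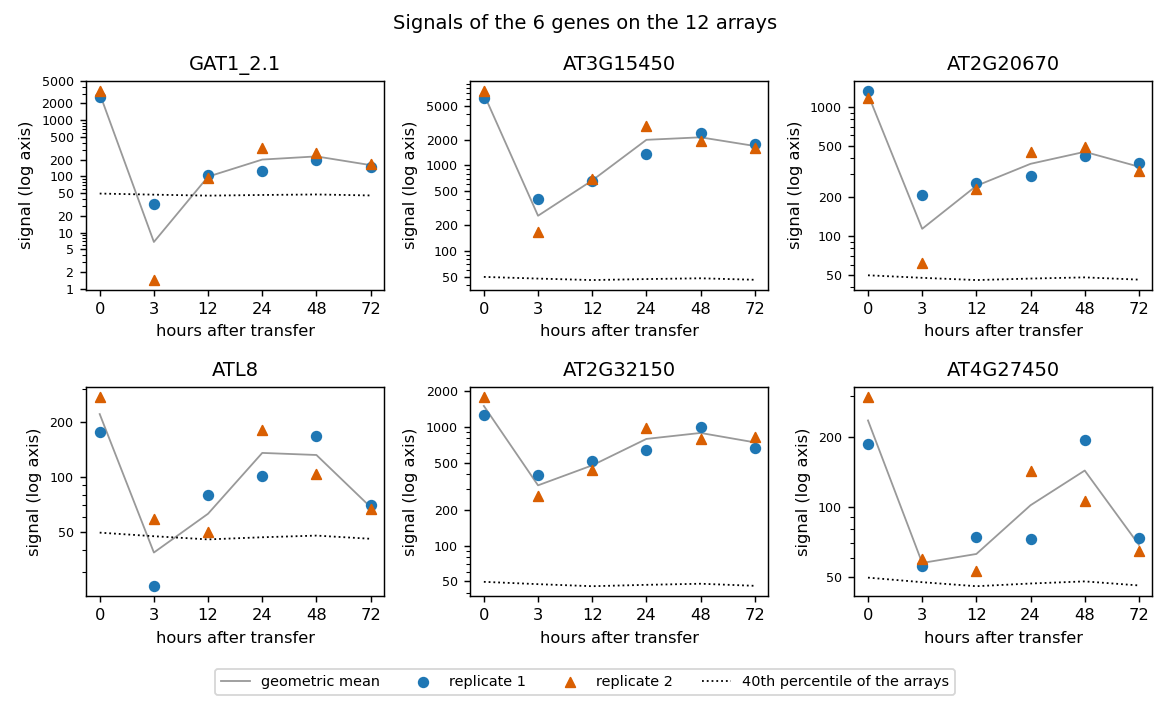
Signals of the 6 genes on each array, on a log axis, against the hours after transfer (times evenly spaced). Circles are replicate 1, triangles replicate 2, the grey line joins geometric means and the dotted line is the mean 40th percentile of the arrays. Every gene is highest at 0 h and lowest at 3 h by its mean, and GAT1_2.1 lies below the dotted line only at 3 h.

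GAT1_2.1 had the largest fall. Its signal was 2642 and 3409 at 0 h, 32.4 and 1.42 at 3 h, 106.0 and 92.9 at 12 h, 124.5 and 321.5 at 24 h, 197.9 and 262.2 at 48 h, and 149.2 and 170.1 at 72 h (replicates 1 and 2). Every array on deficient medium lay below both 0 h arrays, and both 3 h arrays lay below all others. The log2 difference of 3 h from 0 h was -8.79 ± 0.92 (SE from the fit over all probe sets, 2 arrays each), the lowest of all 14678 probe sets. The size of this fall is uncertain, because both 3 h arrays were below the 40th percentile of their array. Without detection calls it is not known how far such dim signals lie above background. Leaving out 3 h replicate 2 gave -6.53, and leaving out 3 h replicate 1 gave -11.05. With an offset of 16.3 added before log2 the difference was -6.68. At 12, 24, 48 and 72 h the log2 differences from 0 h were -4.92, -3.91, -3.72 and -4.24, so the mean stayed at 3.31% to 7.59% of the 0 h level. The gene's other probe set was dim throughout, with 45.2 and 54.3 at 0 h and 0.677 to 25.7 on the later arrays. It lay below the 40th percentile on 11 of 12 arrays and was not tested, though each of its later signals was also lower than both at 0 h.

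AT3G15450 had the next largest fall. Its signal was 6206 and 7508 at 0 h, 402.6 and 164.4 at 3 h, 647.6 and 684.9 at 12 h, 1359 and 2911 at 24 h, 2369.9 and 1912 at 48 h, and 1759.8 and 1612 at 72 h. The 3 h level was 3.77% of the 0 h level, a log2 difference of -4.73 ± 0.35. From 3 h its mean log2 signal was higher at each time up to 48 h, with 24 and 48 h overlapping, and at 72 h it was 24.7% of the 0 h level. All of its signals were far above the 40th percentile of their arrays, so this fall does not rest on dim signals.

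AT2G20670 followed the same order of times. Its signal was 1332 and 1163 at 0 h, 208.3 and 61.7 at 3 h, 255.7 and 232.4 at 12 h, 290.4 and 448.5 at 24 h, 412.6 and 484.0 at 48 h, and 366.8 and 320.4 at 72 h. The 3 h difference was -3.46 ± 0.39 on the log2 scale. It differed between the 2 arrays of 3 h, with -2.58 when replicate 2 was left out and -4.34 when replicate 1 was. At 48 h the level was 35.9% of that at 0 h.

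AT2G32150 moved less and varied less. Its signal was 1254 and 1797 at 0 h, 396.3 and 261.2 at 3 h, 517.3 and 434.4 at 12 h, 637.6 and 983.7 at 24 h, 1003 and 788.1 at 48 h, and 663.2 and 826.9 at 72 h. The later groups did not overlap with 0 h. The log2 difference at 3 h was -2.22 ± 0.25, and from 24 to 72 h the level was 49.3% to 59.2% of that at 0 h.

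ATL8 and AT4G27450 had low signals. Their replicates differed at 0, 12, 24 and 48 h and lay close together at 72 h. At 3 h the replicates of ATL8 differed by 1.22 on the log2 scale and those of AT4G27450 by 0.10. ATL8 had 176.7 and 273.9 at 0 h, 25.2 and 58.9 at 3 h, 79.3 and 49.8 at 12 h, 101.3 and 179.8 at 24 h, 167.6 and 103.2 at 48 h, and 70.0 and 66.6 at 72 h. AT4G27450 had 186.0 and 298.3 at 0 h, 55.4 and 59.3 at 3 h, 73.9 and 53.1 at 12 h, 72.5 and 142.3 at 24 h, 194.2 and 105.8 at 48 h, and 73.1 and 64.4 at 72 h. ATL8 at 24 h and AT4G27450 at 48 h overlapped with 0 h, while at the other times both arrays of each gene lay below both 0 h arrays. The signal of ATL8 on 3 h replicate 1 lay below the 40th percentile, and its log2 difference at 3 h was -1.90 without that array. The log2 differences at 3 h were -2.51 ± 0.40 for ATL8 and -2.04 ± 0.35 for AT4G27450. Both genes were low again at 72 h, at 31.0% and 29.1% of their 0 h levels.

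Over the 6 genes, the median log2 difference from 0 h was -2.98 at 3 h, -2.13 at 12 h, -1.50 at 24 h, -1.12 at 48 h and -1.82 at 72 h. The median over all probe sets tested lay between -0.02 and 0.01 at each time. Both arrays lay below both 0 h arrays for 6 of 6 genes at 3 h, where 25.5% of all probe sets did so, and for 6 of 6 at 12 h (25.7%). The count was 5 of 6 at 24 h (24.0%), 5 of 6 at 48 h (21.4%) and 6 of 6 at 72 h (25.3%). For 4 genes every later array lay below both 0 h arrays, against 7.34% of all probe sets. These contrasts were known when the genes were grouped, so nothing is read from the counts. The tissue was whole root, in which fewer cells that express a gene and less RNA per cell cannot be told apart.

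**Figure D2:**
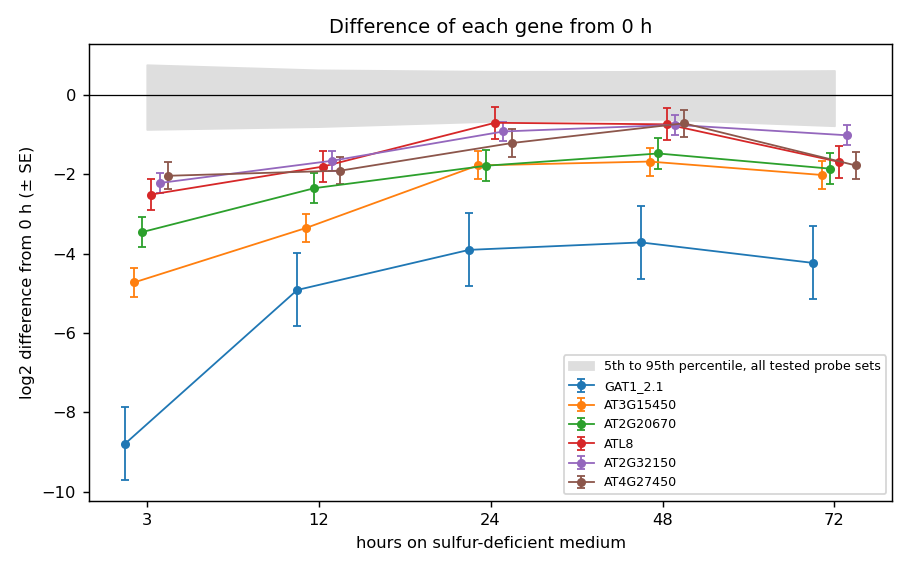
Log2 difference of each gene from 0 h, with the standard error of the fit, against hours on sulfur-deficient medium (times evenly spaced), over the range from the 5th to the 95th percentile of all 14678 probe sets tested (grey). At 3 h the 6 genes lie between -8.79 and -2.04, below the 5th percentile of -0.87.

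By 48 h AT3G15450 had regained 64.5% of its log2 fall at 3 h, AT2G32150 66.0%, ATL8 70.5%, AT4G27450 64.8%, AT2G20670 57.3% and GAT1_2.1 57.7%. These shares depend on the 3 h arrays. GAT1_2.1, dim at 3 h, had 43.0% when 3 h replicate 2 was left out and 66.3% when replicate 1 was. With the offset it had 45.7%. The share of AT2G20670 was 42.7%, 65.9% and 55.6% under the same settings. The share at 12 h is uncertain in most of the genes. It was 44.0% for GAT1_2.1 but 24.7% to 55.5% under those settings, 32.0% for AT2G20670 but 8.79% to 45.7%, and 28.04% for ATL8 but 4.92% to 42.1%. AT4G27450 had regained 6.29% by 12 h, and 3.94% to 8.53% under the same settings. At 72 h the mean of every gene was lower than at 48 h. Of the log2 return between 3 and 48 h, AT4G27450 kept 19.6% at 72 h and ATL8 46.6%, while the other 4 genes kept 80.7% to 89.8%.

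Steps between successive times are given beside how often any probe set separated. The signals on all 12 arrays were known when the genes were grouped, so nothing is read from these counts. Both 12 h arrays lay above both 3 h arrays in 4 of 6 genes, against 20.0% of all probe sets, with ATL8 and AT4G27450 overlapping. From 12 to 24 h this held for 5 of 6 genes (22.0% of all probe sets), with AT4G27450 overlapping. From 24 to 48 h all 6 genes overlapped, while 18.8% of all probe sets had both arrays above and 15.5% both below. Both 72 h arrays lay below both 48 h arrays in 5 of 6 genes (19.4% of all probe sets), with AT2G32150 overlapping.

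In 5 of the 6 genes, GAT1_2.1, AT3G15450, AT2G20670, AT2G32150 and AT4G27450, the mean log2 signal had the order 3, 12, 72, 24, 48 and 0 h, low to high, as it did in 1.14% of all probe sets tested. Nothing is read from this count either, and in ATL8 the 24 and 48 h means changed places. For GAT1_2.1, AT3G15450, AT2G20670 and AT2G32150, neighbours in this order did not differ beyond their spread from 72 to 24 h and from 24 to 48 h, and the other neighbours had arrays that did not overlap. In ATL8 only 72 and 48 h were separated among neighbours, and in AT4G27450 no neighbours were, so the order of these 2 genes is within their spread.

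The 2 arrays of a time could differ in the same direction across the 6 genes, which were grouped with these signals known. At 24 h, replicate 2 was higher than replicate 1 in all 6 genes, by 0.63 to 1.37 on the log2 scale. Of all probe sets tested, 2.60% had a difference of at least 0.63 in that direction. That bound was the smallest of the 6 differences, so all 6 reach it by construction. Without 24 h replicate 1 the median difference of the 6 genes from 0 h was -0.98, and without 24 h replicate 2 it was -1.90, so the 24 h level depends on which array is taken. At 3 h, replicate 2 was lower in GAT1_2.1, AT3G15450, AT2G20670 and AT2G32150 and higher in ATL8 and AT4G27450. At 72 h the replicates of the 6 genes lay within 0.32 of each other. The 24 h arrays had the highest correlation of all replicate pairs over the probe sets tested, 0.982, and the median difference over all probe sets at 24 h was 0.00.

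**Figure D3:**
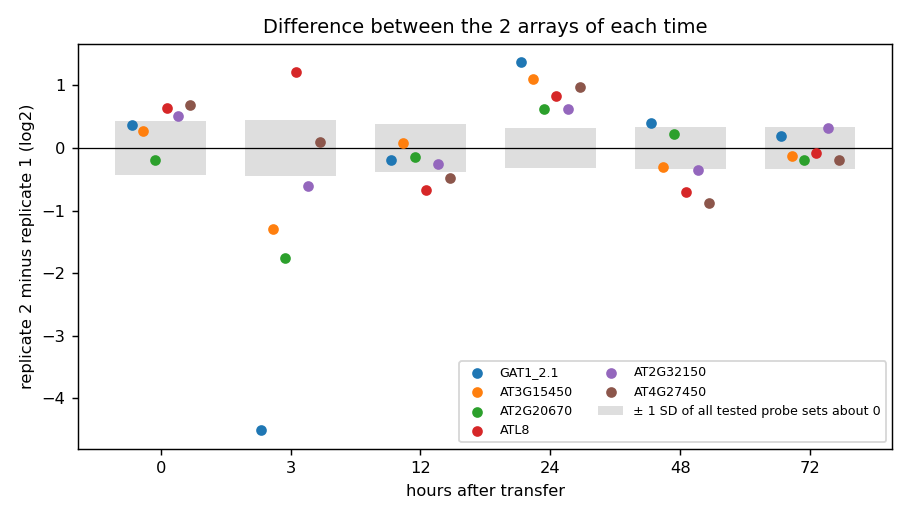
Log2 signal of replicate 2 minus that of replicate 1 at each time (times evenly spaced), 1 point per gene, over bars of 1 SD of the same difference for all probe sets tested on either side of 0. At 24 h all 6 points lie between 0.63 and 1.37, above the bar, and at 3 h GAT1_2.1 lies at -4.51.

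Across the 12 arrays the log2 signals of the 6 genes followed each other, as the choice of genes fixes in part. As a description, Pearson's r over the 15 pairs of genes ran from 0.711 for GAT1_2.1 with ATL8 to 0.986 for GAT1_2.1 with AT2G20670. The points share groups and arrays. GAT1_2.1, AT3G15450, AT2G20670 and AT2G32150 had r of 0.932 to 0.986 with each other. ATL8 and AT4G27450 had 0.916 with each other, and 0.711 to 0.879 with those 4.

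Among the other 7849 named and tested genes, those with the most similar course were found by Pearson's r with the mean of the 6 standardised profiles over the 12 arrays. The highest was AT5G19120 (r = 0.982), followed by AT1G23390 (0.977), AT5G24490 (0.977), AT2G38820 (0.975), CHLM (0.974), AT3G15630 (0.973), GT-1 (0.971), AT4G05070 (0.967), AT3G16350 (0.967) and AT2G46220 (0.966). CHLM is magnesium-protoporphyrin IX methyltransferase, an enzyme of chlorophyll synthesis, and GT-1 is a DNA-binding transcription factor. In all, 101 of these genes had an r over 0.9. AT1G23390 had a mean signal of 88.2 at 3 h against 816 at 0 h, and AT3G15630 had 440.1 against 2894. CHLM had 76.8 at 3 h against 269.1 at 0 h, and GT-1 had 111.5 against 283.2. The closest single match was AT5G03180 for GAT1_2.1 (r = 0.977), AT3G47160 for AT3G15450 (0.978), AT2G36320 for AT2G20670 (0.969), AT2G46220 for AT2G32150 (0.988) and AT1G10140 for AT4G27450 (0.964). For ATL8 it was PSB27 (0.966), a factor of photosystem II assembly. The genes were picked for this likeness, so it is no independent evidence.

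**Figure D4:**
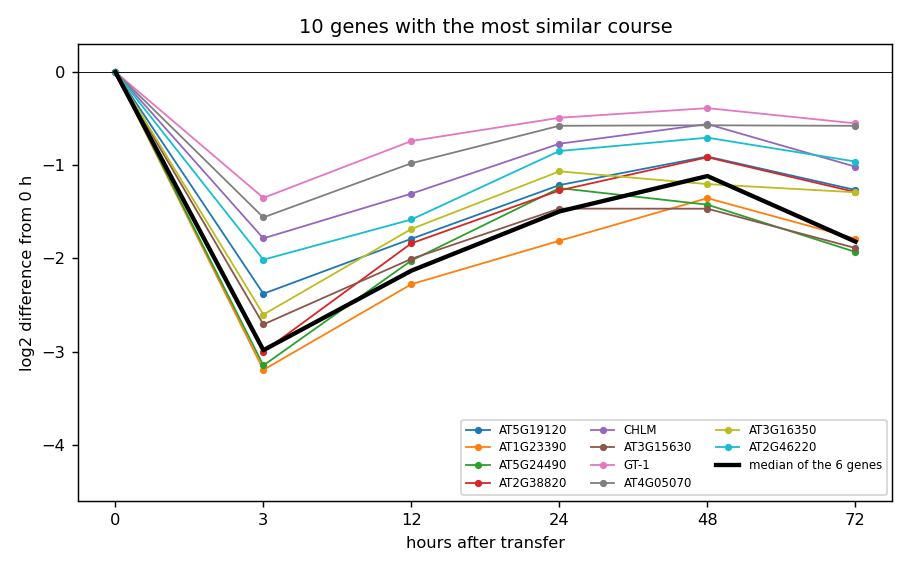
Log2 difference from 0 h of the 10 genes whose course over the 12 arrays was most similar to the mean profile of the 6 genes (thin lines), with the median of the 6 genes (thick line), against hours after transfer (times evenly spaced). All 10 are lowest at 3 h, between -3.20 for AT1G23390 and -1.35 for GT-1, where the median of the 6 genes is -2.98.

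A wider list of genes known to be repressed by sugar or induced by starvation was tested in the fit over all probe sets, with the 6 genes left out. The list was written with earlier results of these data known, so its counts are a description and no independent evidence. Of its 64 genes, 26 were matched by a probe set of their own and 23 were tested. None of the DIN genes on the list, named as dark-inducible, was among the 26, so they were not read. At 3 h, 12 of the 23 fell and AT3G52740 rose, against 6.53% of all probe sets tested that fell and 5.42% that rose (limma, Benjamini-Hochberg adjusted p under 0.05). At 12 h, 12 fell and AT3G52740 rose, against 4.33% and 3.36% of all probe sets. At 24, 48 and 72 h, 8, 6 and 9 fell against 2.36%, 1.55% and 3.26% of all probe sets. None rose at these times, when 2.47%, 1.97% and 2.91% of all probe sets did. The list's median log2 difference was -0.78, -0.82, -0.52, -0.31 and -0.43 in the order of times. A fit that leaves 1 array in a group is less precise and can lose calls for that reason alone. The counts at the last 3 times were not stable when single arrays were left out. Leaving out 1 array brought them to as low as 1 at 24 h (without 24 h replicate 1), 1 at 48 h (without 0 h replicate 2 or 48 h replicate 2) and 3 at 72 h (without 72 h replicate 2). They were also 3 at 24 h and 4 at 72 h without 0 h replicate 2, 2 at 48 h without 48 h replicate 1, and 5 at 72 h without 72 h replicate 1.

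Of the 23 genes, 6 were lower than 0 h at all 5 times, namely AT1G80380, AT5G19120, AT1G18460, AKINBETA1, IVD and MCCA, while 0.736% of all probe sets tested were called lower at all 5 times. AT1G80380 had signals of 99.6 and 91.5 at 3 h, against 1579 and 1611 at 0 h, and fell by 4.06 ± 0.24 on the log2 scale (limma, adjusted p = 1.06e-07). At 48 h it had 481.5 and 403.0, a difference of -1.86 ± 0.24, so its groups never came near 0 h. AT5G19120 had 536.1 and 561.7 at 3 h, against 2545 and 3201 at 0 h, and fell by 2.38 ± 0.20 (limma, adjusted p = 2.88e-06). AKINBETA1, a beta subunit of the SnRK1 kinase itself, had 226.9 and 226.7 at 3 h, against 647.2 and 587.8 at 0 h, and fell by 1.44 ± 0.17 (limma, adjusted p = 6.18e-05).

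IVD and MCCA, enzymes of leucine breakdown, had their lowest mean at 12 h. IVD, isovaleryl-CoA dehydrogenase, had 244.3 and 225.2 at 12 h, against 724.8 and 949.9 at 0 h, and fell by 1.82 ± 0.25 at 12 h (limma, adjusted p = 6.14e-04) and stood at -1.68 at 3 h. MCCA, a subunit of 3-methylcrotonyl-CoA carboxylase, fell by 1.64 ± 0.26 at 12 h (limma, adjusted p = 1.29e-03) and stood at -1.57 at 3 h. Neither step from 3 to 12 h passed, so these genes were not shown to fall further. PPDK, pyruvate orthophosphate dikinase, passed at 3, 12, 24 and 72 h and not at 48 h. At 3, 12 and 72 h it stood at -1.06, -1.20 and -1.01. At 24 h it had 41.2 and 69.3, against 134.2 and 136.3 at 0 h, and fell by 1.34 ± 0.27 (limma, adjusted p = 0.0114). The 41.2 of replicate 1 lay below the 40th percentile of its array. The 24 h call did not hold when 0 h replicate 2 or 24 h replicate 1 was left out. Those at 3, 12 and 72 h did not hold without either 0 h array.

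AT5G61590, also named DEWAX after the decrease of wax synthesis that it brings about, fell at 3 and 12 h. It had 117.4 and 60.6 at 3 h, against 924.3 and 1146 at 0 h, a log2 difference of -3.61 ± 0.28 (limma, adjusted p = 1.35e-06), and -1.74 at 12 h. At 24, 48 and 72 h the differences of -0.56, -0.28 and -0.43 did not pass, and neither did the step from 12 to 24 h, of 1.17 (limma, adjusted p = 0.219). AT3G52740 had 580.9 and 649.9 at 3 h, against 338.5 and 421.3 at 0 h, and rose by 0.70 ± 0.15 (limma, adjusted p = 0.00721), a call lost without 0 h replicate 1 or 3 h replicate 2. It was named after its values were seen, as the single gene of the list that rose.

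**Figure D5:**
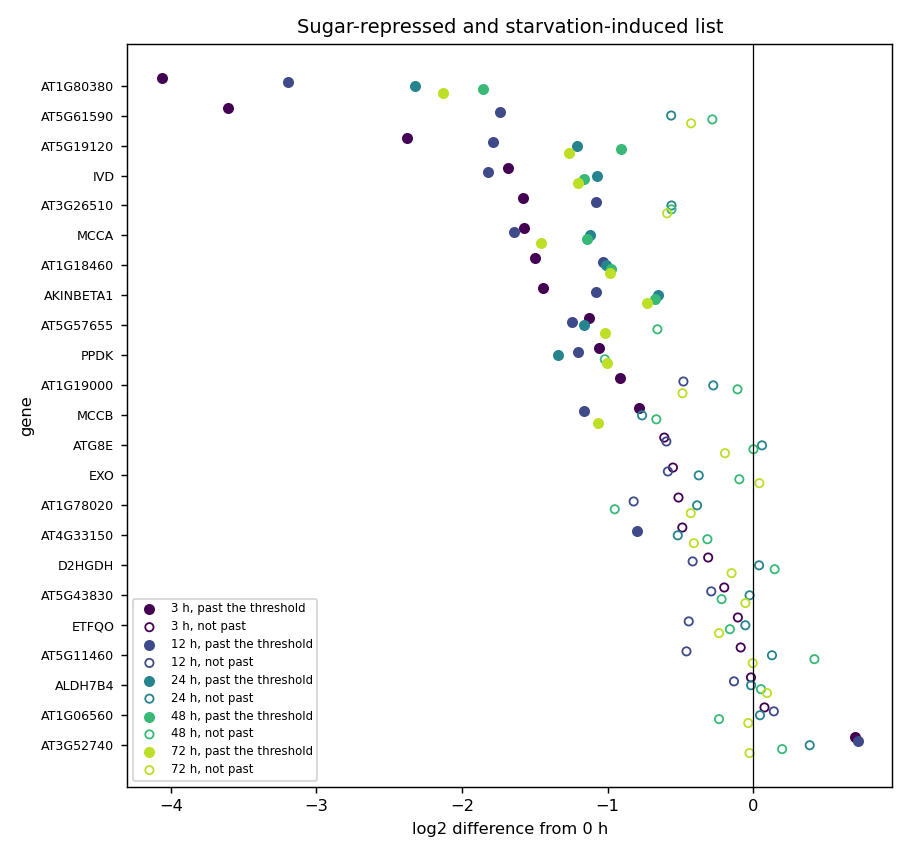
Log2 difference from 0 h of the 23 tested genes of the sugar-repressed and starvation-induced list, ordered by their value at 3 h, with 1 colour per time. Filled circles passed the adjusted p of 0.05 and open circles did not. The filled circles lie left of 0, from -4.06 for AT1G80380 at 3 h, except for AT3G52740 at 3 and 12 h.

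Between successive times, 1 of the 23 genes passed in either direction, AT5G61590 from 3 to 12 h. Over all probe sets 2.16% passed from 3 to 12 h, 0.0273% from 12 to 24 h, 0.0204% from 24 to 48 h and 0.0818% from 48 to 72 h. From 12 to 24 h none of the 23 passed by limma, with 10 at an unadjusted p under 0.05. Of these 10, AT3G52740 was lower at 24 h and the others were higher. From 24 to 48 h and from 48 to 72 h none passed, with 0 and 1 at an unadjusted p under 0.05. The share of all probe sets at an unadjusted p under 0.05 is not given here, so nothing is read from these unadjusted counts. The replicates of a time also differed over the list. Replicate 2 was the higher in 20 of 23 genes at 24 h (median log2 difference 0.25), against 50.1% of all probe sets tested. It was the higher in 5 of 23 at 48 h (median -0.26; 49.1% of all probe sets) and in 6 of 23 at 3 h (median -0.24; 53.2% of all probe sets).

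AT1G80380 passed at all 5 times under every alternative tried, while some calls of the other 5 genes were lost when single arrays were left out. Leaving out an array of a group leaves 1 there, so a lost call can come from lower precision alone. The difference of AT1G18460 at 48 h kept a size of 0.92 to 1.03 over the alternatives. AT5G19120 was lost at 24 h without 24 h replicate 1, as was AT1G18460, which was also lost at 12 h without 12 h replicate 2. At 48 h both were lost without 0 h replicate 2 or either 48 h array, and AT1G18460 was lost at 72 h without 72 h replicate 2. AKINBETA1 passed at 3 and 12 h under every alternative, but at 24, 48 and 72 h, where it stood at -0.65, -0.67 and -0.73, it was lost without either 0 h array and, at 24 and 48 h, under most alternatives. IVD at 24, 48 and 72 h and MCCA at 24 and 48 h were lost without 0 h replicate 2 and without at least 1 array of that time.

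Genes that sugar is known to induce were sparse among the named probe sets. Of 40 on that list 6 had a probe set and 4 were tested, and none passed at any time by limma. At an unadjusted p under 0.05 there were 1, 1, 0, 1 and 0. These counts have no share of all probe sets beside them, so nothing is read from them. The differences at 3 h were 0.24 for APL3, a large subunit of the enzyme that makes ADP-glucose for starch, 0.23 for the starch branching enzyme SBE2.2, 0.52 for the phosphoglycerate mutase PGM and 0.30 for the glycosyl hydrolase GH9C2. In the list of SnRK1, TOR and trehalose phosphate signalling, 6 of 36 genes were tested and AKINBETA1 was the single one that passed. It is the same gene already counted in the sugar-repressed list. AKINBETA1 was lower at all 5 times, as were 0.736% of all probe sets tested. BZIP53 and bZIP44, transcription factors of the low-energy response, stood at 0.07 and 0.44 at 3 h, and RAPTOR1, a subunit of the TOR complex, at -0.02. In glutamine and asparagine metabolism 2 of 17 genes were tested. The asparaginase ASPGB1 fell by 0.70 ± 0.15 at 24 h (limma, adjusted p = 0.02), a call lost without 0 h replicate 2 or either 24 h array, and ASPGA1 stood at 0.07. No ATL gene other than ATL8 was named and tested.

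The labelled tissue was checked against its markers. Of 20 root markers 4 were tested, and PYK10, an abundant root beta-glucosidase, had signals of 9927 to 14025 over the 12 arrays. EXPA7 and EXPA18, expansins of root hair cells, fell at 3 h with the 6 genes, by 1.77 ± 0.29 and 1.08 ± 0.21 (limma, adjusted p = 0.00104 and 0.00325). They also fell at 24 h, by 1.15 and 1.27, and EXPA18 fell at 48 and 72 h, by 0.86 and 0.80, while PYK10 and AT5G48940 passed at no time. The summed signal of the 4 root markers, most of it from PYK10, was 12845 to 14887 at 3 h, against 13337 to 15435 at 0 h. The part of these markers in the result was not tested. Of 24 green tissue markers 3 were tested, RCA, LHCB4.1 and LHCB4.2, none of them at 0 on any array, with LHCB4.2 below the 40th percentile on 9 of 12. Their summed signal was 629.0 to 680.9 at 0 h, 425.9 to 488.5 at 3 h, 336.4 to 361.8 at 12 h, 537.7 to 761.5 at 24 h, 531.9 to 782.3 at 48 h and 482.3 to 694.9 at 72 h. It was thus lower at 3 and 12 h than at 0 h, as were the 6 genes. This sum was lowest at 12 h and the 6 genes at 3 h, and the sum overlapped with 0 h at 24, 48 and 72 h. The part of the green tissue markers was not tested either. Of these 3 markers, RCA and LHCB4.1 fell at 12 h, by 0.90 and 0.80, and none passed at the other times.

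Other values stand beside the fall at 3 h. For the actin control, the signal of the 3' probe set over that of the 5' probe set was highest on 3 h replicate 2. It was 3.44 there, against 2.38 to 3.27 on the other 11 arrays. The same ratio of the ubiquitin control was also highest there, at 1.201, with 0 h replicate 2 close at 1.190. That of the GAPDH control was 0.953 on 3 h replicate 2, within the 0.834 to 1.24 of the 12 arrays. That array held the lowest signal of GAT1_2.1, AT3G15450, AT2G20670 and AT2G32150. Without that array AT3G15450 stood at -4.08 on the log2 scale at 3 h, and GAT1_2.1 at -6.53. Of the clock genes listed, 3 of 26 were tested. At 3 h GI rose by 1.61 and TIC stood at 0.09. CCL fell at 3 h (limma, adjusted p = 0.000526), with signals of 4.01 and 17.7, against 86.2 and 117.7 at 0 h. The size of that fall is uncertain, since both 3 h signals lay below the 40th percentile. Of the sulfur deficiency markers 3 of 10 were tested, and BGLU28 and AT1G04770 rose at all 5 times while MGL passed at none.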

How the data were processed

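The authors deposited a table of linear intensity values. Per the submitters' processing notes it was made with MAS5, which subtracts background and combines the probes of a probe set, at a version and scaling target not given in the sources used here. Trimmed means of the 12 arrays (2% off each end) were all 250.02 to 250.03, so the intensity values were used as deposited, on a log2 scale without offset. The table has no detection calls, so the background of a probe set is not known. The number of arrays limits the precision.

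Of 22746 probe sets that are no controls, 14678 had a signal above the 40th percentile of the array (45.3 to 50.4) on at least 2 arrays and were tested. Group means were fitted over all 12 arrays with limma 3.58.1 in R 4.3.3, leaving 6 residual degrees of freedom, with a trend of the prior variance on signal. P-values were adjusted by Benjamini-Hochberg across all tested probe sets, at a threshold of 0.05. The fit was tested on simulated data. A gene with several probe sets was read from the brightest by mean log2 signal. Names came from the platform table, which paired 13513 probe sets with 1 symbol and 503 with several and left 8730 unlisted, brought up to date with NCBI's genes for TAIR10.1 (13436 matched).

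The 6 genes and all lists were chosen with earlier results of these data known. Named are the 6 genes, up to 4 genes of a list per time by p among those past the threshold, and the genes most similar in course. Promoter and protein sequences, and protein families other than ATL, were not analysed here. Alternatives were an offset, quantile normalization, other filters, no trend, the replicate number as a block, fits of only the groups compared, and single arrays left out in turn.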

Additional observations from a re-analysis of the deposited data

Results flagged for a closer look

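The difference of AT5G61590 (DEWAX) from 0 h was not the same at 12 h as at 3 h. Its signals were 307.8 and 309.0 at 12 h, against 117.4 and 60.6 at 3 h. The test of that difference gave a log2 change of 1.87 ± 0.28 (limma, adjusted p = 0.00348), and both 12 h arrays lay above both 3 h arrays.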

How the results depend on the processing

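The median log2 difference of the 6 genes kept its direction with the offset, quantile normalization, the replicate block, the groups alone and each array left out. The count of them with both arrays below both 0 h arrays was 5 or 6 with the offset, quantile normalization and each array left out. Neither was recomputed under the other filters or without the trend, which do not enter them. With GAT1_2.1 left out, an alternative chosen after seeing the data, the median was -2.51 at 3 h, -1.91 at 12 h and -0.76 at 48 h. Leaving out 1 array at a time gave medians of -3.43 to -2.85 at 3 h, -2.29 to -1.98 at 12 h, -1.90 to -0.98 at 24 h, -1.26 to -1.02 at 48 h and -2.06 to -1.66 at 72 h.

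The count of sugar-repressed genes that fell was 4 at 24 h and 2 at 48 h with no trend of the prior variance, and 5 at 24 h with the groups compared alone, where the 1 gene that rose at 3 h became 0. Leaving out 1 array gave 9 to 12 at 3 h, 8 to 12 at 12 h, 1 to 9 at 24 h, 1 to 7 at 48 h and 3 to 9 at 72 h that fell, and 0 to 1 that rose at 3 and 12 h. The single call of the SnRK1 list became 0 at 24 and 48 h with no filter, with the replicate block and with the groups alone, and at 24, 48 and 72 h with no trend. Leaving out 1 array gave 1 to 2 for it at 3 h and 0 to 1 at 24, 48 and 72 h. That of glutamine and asparagine metabolism at 24 h became 0 with the groups alone, and 0 to 1 without 1 array.

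No strong pairing of the samples by replicate number was seen, though so few arrays cannot exclude a weak one. Deviations of same-numbered arrays correlated at -0.23 to 0.20 over 15 pairs of groups, with 1 above 0.1. Apart from the SnRK1 list, the block moved no count beyond 1.5 times. Signals below the 40th percentile limit the size of the falls of GAT1_2.1, ATL8 and CCL at 3 h.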
